A study of Mus musculus with 2 samples.

Results

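A set of 9 genes, of the 25663 gene columns of the deposited table, that carry sugar across the gut epithelium, split fructose or make glucose were followed in the fetal mouse small intestine. They were chosen by name: the transporters Slc5a1, Slc2a2 and Slc2a5, the fructose kinase Khk, the gluconeogenic genes Fbp1, G6pc, Pck1 and Slc37a4, and the glycerol phosphate gene Gpd1. All 9 have a column, and 11696 of the 11871 rows (1 row is 1 cell barcode) listed at least 1 of them above 0.

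The labels describe 2 libraries of sorted small intestine epithelial cells at embryonic day 18.5, 1 from Tet3 knockout and 1 from Control embryos (called wild-type in the protocol), both labelled C57BL6/J. Each library pooled the cells of 2 embryos. The knockout allele, made in embryonic stem cells of a C57BL6/J by C3H/HeJ F1 cross, lacks exon 5 of Tet3 in all cells, which shifts the frame and puts a stop codon in exon 6. The line was backcrossed to C57BL6/JRccHsd for at least 5 generations. Cells were fixed in 90% methanol and read near the 3′ end of each transcript with 10x Genomics droplets, from 6000 cells a library. The table joins both libraries, and its barcodes end in 0 (5933 rows, called set 0) or 1 (5938 rows, called set 1). No label ties an ending to a genotype, so the sets carry none here, and the level of Tet3 was not used to give them one. With 1 library per genotype there is no replicate, so values come with counting intervals and no test.

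Enterocytes take up glucose and galactose from the lumen with sodium through SGLT1 (Slc5a1) and fructose through GLUT5 (Slc2a5), and sugars leave toward the blood through GLUT2 (Slc2a2). Khk phosphorylates fructose, which feeds fructolysis. Pck1 and Fbp1 carry out the regulated steps of gluconeogenesis, Slc37a4 brings glucose phosphate into the endoplasmic reticulum, and G6pc, the catalytic subunit of the glucose phosphatase there, frees glucose. In rats and mice, intestinal Slc2a5 is known for being low until around weaning.

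Levels are mean CP10K, the share of a row's total per 10000, as the authors scaled each row. Rows were grouped by the fatty acid binding protein Fabp1, the bile acid binding protein Fabp6 and the cell cycle genes Mki67 and Top2a. Fabp1 (below 40, 40 to 100 and above 100 CP10K) is high in mature enterocytes, most of all in the proximal gut, and Fabp6 (below 10, 10 to 50 and above 50 CP10K) marks the ileum. Mki67 and Top2a are high in dividing cells, though rows were split only by any Mki67+Top2a signal (above 0, or 0). These 4 genes define the groups and are no result. The epithelial marker Epcam averaged between 10.8 and 18.6 CP10K over the 12 groups checked, and all 6 epithelial markers were above 0 in each. Albumin (Alb), the defining hepatocyte gene, lay at or under 0.000886 CP10K in them, and the 6 of 8 hepatocyte markers in the table summed to between 0.201 and 1.67 CP10K, led by Serpina1a, Serpina1b or Fgb. The 4 endothelial markers summed to at most 0.0392 CP10K and the 6 mesenchymal markers to at most 1.10 CP10K. Higher were the 4 immune markers in the table, at most 3.21 CP10K and led by Csf1r, and the 3 pancreatic acinar ones, at most 2.57 CP10K and led by Ctrb1. With Fabp6 below 10 and no Mki67 or Top2a, Csf1r averaged 0.622 CP10K with Fabp1 below 40 and 1.92 CP10K above 100 in set 0. In set 1 it averaged 0.917 and 1.16 CP10K.

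The sets share 818 barcodes, and the rows of such a pair resembled each other. Of these pairs, 93.5% fell in the same Fabp1 by Fabp6 group, against 22.1% from the group shares alone, and Fbp1 averaged 1.88 CP10K in their set 0 rows and 1.87 CP10K in their set 1 rows. The set 0 rows of the pairs were deeper, with a median of 51368.5 unique molecular identifiers (UMIs) against 13596.5 in the set 1 rows. These rows were left out of set 1, which leaves 5120 rows in set 1 and 11053 in all. Median depth was then 23657 UMIs per row in set 0 and 22374.5 in set 1.

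Over these 11053 rows Slc5a1 averaged 1.67 CP10K from 49357 UMIs, Slc2a2 0.656 CP10K from 19570 UMIs and Slc2a5 0.0415 CP10K from 1229 UMIs. Khk averaged 0.493 CP10K, Fbp1 1.53, G6pc 0.158, Pck1 1.34, Slc37a4 0.828 and Gpd1 0.804 CP10K. Slc2a5 was therefore the member with the fewest UMIs, and it stayed under the level of 0.2 CP10K set for a fold in every comparison below.

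The 4 members whose mean was at least 2-fold higher in rows with Fabp1 above 100 are shown with the bases before their start, since these are the members past that fold there. The sequences come from RefSeq's promoter table (GRCm38.p6), in lower case, without bases that GENCODE vM21 places in an exon of the gene. Capitals mark matches to GTTAAT (a core of HNF1 sites), AGTCCA (a core of HNF4 sites), ACGTCA (a core of CREB sites) or CACGTG (an E-box), on either strand. The stretches lie at chr3:28697653-28697902 (plus strand) for Slc2a2, chr13:62888283-62888532 (minus strand) for Fbp1, chr11:101367466-101367560 (plus strand) for G6pc and chr2:173152823-173153047 (plus strand) for Pck1.
Slc2a2: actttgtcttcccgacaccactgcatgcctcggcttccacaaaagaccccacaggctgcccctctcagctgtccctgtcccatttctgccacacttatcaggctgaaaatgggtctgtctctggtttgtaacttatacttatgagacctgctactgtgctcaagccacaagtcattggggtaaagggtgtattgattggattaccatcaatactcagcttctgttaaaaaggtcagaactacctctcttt
Fbp1: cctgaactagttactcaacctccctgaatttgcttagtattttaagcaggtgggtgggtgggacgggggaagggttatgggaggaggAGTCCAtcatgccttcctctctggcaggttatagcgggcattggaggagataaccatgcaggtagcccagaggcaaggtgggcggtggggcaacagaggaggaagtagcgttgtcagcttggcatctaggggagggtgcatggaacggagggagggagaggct
G6pc: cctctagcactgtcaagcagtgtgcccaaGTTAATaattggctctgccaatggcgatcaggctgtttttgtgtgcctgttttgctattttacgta
Pck1: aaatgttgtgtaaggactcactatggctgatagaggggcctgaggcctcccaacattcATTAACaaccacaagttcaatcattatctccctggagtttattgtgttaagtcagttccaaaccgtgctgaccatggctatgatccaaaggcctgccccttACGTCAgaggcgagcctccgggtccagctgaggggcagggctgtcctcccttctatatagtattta

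No 2 of the 4 motifs overlap in these stretches, and all were chosen with the sequences in view. In the full 250 bases before the start, GTTAAT was found in 3 of the 8 members with an entry (Khk, G6pc and Pck1), AGTCCA in 2 (Fbp1 and G6pc), ACGTCA in 2 (Pck1 and Slc37a4) and CACGTG in 2 (Slc5a1 and Khk). Of all 32851 windows in that table, 6.43% hold GTTAAT, 11.5% AGTCCA, 6.47% ACGTCA and 6.02% CACGTG. Members were counted by gene, with a match in any window, and a gene such as Slc37a4 has several windows. The counts of members and the shares of windows are therefore not like measures. The Slc2a2 stretch holds none of these letters, and no motif is shared by all 4 genes. Gpd1 has no entry.

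The members Slc2a2, Pck1, G6pc and Fbp1 had means at least 2-fold higher in the 6140 rows with Fabp1 above 100 than in the 3864 rows with Fabp1 below 40. That is 4 of the 8 members past 0.2 CP10K in either group, and of all 5666 genes past it 4.91% were at least 2-fold higher. None of the 8 was 2-fold lower, against 11.6% of all genes. Log2 ratios have 0.01 CP10K added to both means, and their median over all genes was -0.17. Markers of secretory cells moved with these groups. Among rows with Fabp6 below 10 and no Mki67 or Top2a, the 7 goblet markers summed to 0.726 CP10K with Fabp1 above 100 and 15.7 CP10K with Fabp1 below 40 in set 0, and to 0.398 and 6.27 CP10K in set 1. The 8 enteroendocrine markers summed to 0.0717 and 8.82 CP10K in set 0 and to 0.120 and 6.43 CP10K in set 1, and their part in the result was not tested.

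Slc2a2 (ENSMUSG00000027690.13, chr3:28697903-28731359, plus strand), the basolateral exit for sugars, had the highest ratio. In rows with Fabp6 below 10 and no Mki67 or Top2a, it averaged 0.0891, 0.148 and 1.15 CP10K in set 0 from the low to the high Fabp1 group, and 0.110, 0.321 and 1.06 CP10K in set 1. Over all rows the mean was 1.05 CP10K with Fabp1 above 100 and 0.112 CP10K with Fabp1 below 40, a log2 ratio of 3.12. The summed counts behind these means, 17568 and 1036 UMIs, gave exact Poisson 95% intervals of 1.01 to 1.04 and 0.107 to 0.121 UMIs per 10000, which do not overlap. Intervals here cover counting error only, not differences between embryos. For the other members below, means over the 3 Fabp1 groups are likewise from rows with Fabp6 below 10 and no Mki67 or Top2a. Pooled means and ratios are from all rows.

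Slc5a1 (ENSMUSG00000011034.6, chr5:33104219-33162870, plus strand), the apical glucose and galactose carrier, spanned less than Slc2a2. It averaged 1.13, 1.42 and 2.13 CP10K in set 0 over the 3 Fabp1 groups, and 1.12, 1.47 and 2.04 CP10K in set 1. The sets lay close together in each group, and the pooled means of 2.08 CP10K with Fabp1 above 100 and 1.04 CP10K with Fabp1 below 40 gave a log2 ratio of 0.99, just under the fold of 2. Slc2a5 (ENSMUSG00000028976.10, chr4:150119283-150144169, plus strand), the fructose carrier, averaged 0.0599 CP10K with Fabp1 above 100 and 0.0167 CP10K with Fabp1 below 40, from 1008 and 147 UMIs. Its intervals, 0.0554 to 0.0627 and 0.0136 to 0.0190 UMIs per 10000, do not overlap either, though both levels are low.

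**Figure D1:**
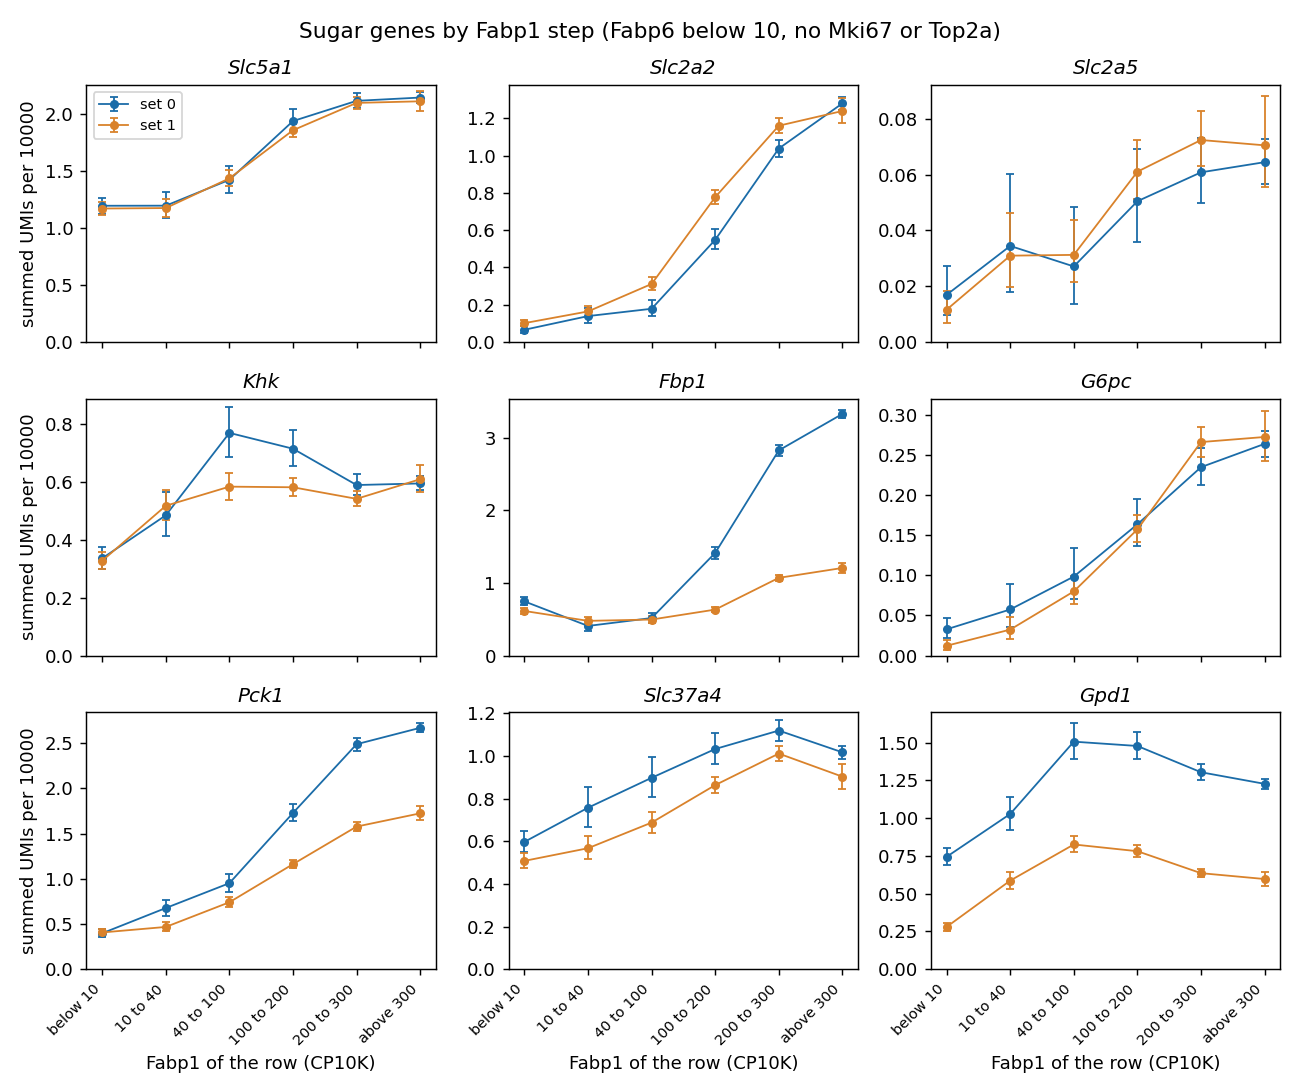
Summed UMIs per 10000 of each of the 9 genes (y axis, from 0) in 6 steps of Fabp1 in CP10K (x axis), in rows with Fabp6 below 10 and no Mki67 or Top2a; blue is set 0, orange set 1, and bars are exact Poisson 95% intervals. Slc2a2, G6pc and Pck1 are higher in the high steps in both sets, Khk and Gpd1 peak in set 0 at 40 to 100, and the Fbp1 intervals of the sets are far apart from the step of 100 to 200 upward and by less below 10.

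Khk (ENSMUSG00000029162.15, chr5:30921431-30931248, plus strand) did not follow Slc2a2. It averaged 0.381, 0.795 and 0.623 CP10K in set 0 over the 3 Fabp1 groups, and 0.414, 0.587 and 0.584 CP10K in set 1, so that the middle group was highest in set 0, while the middle and high groups lay close together in set 1. The pooled log2 ratio of Fabp1 above 100 over below 40 was 0.56.

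Pck1 (ENSMUSG00000027513.11, chr2:173153048-173159273, plus strand), the cytosolic enzyme that commits carbon to gluconeogenesis, averaged 0.474, 0.960 and 2.55 CP10K in set 0 over the Fabp1 groups, and 0.408, 0.738 and 1.48 CP10K in set 1. G6pc (ENSMUSG00000078650.2, chr11:101367561-101377903, plus strand) averaged 0.0394, 0.0986 and 0.254 CP10K in set 0, and 0.0202, 0.0942 and 0.229 CP10K in set 1. Both genes were lowest in the low group and highest in the high group of each set, with pooled log2 ratios of 2.22 for Pck1 and 2.13 for G6pc. Slc37a4 (ENSMUSG00000032114.9, chr9:44396852-44402968, plus strand), the partner of G6pc that moves its substrate, had a smaller span, with 0.600, 0.862 and 1.06 CP10K in set 0 and 0.505, 0.695 and 0.961 CP10K in set 1. Its pooled log2 ratio was 0.88.

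Fbp1 (ENSMUSG00000069805.10, chr13:62864753-62888282, minus strand), the fructose bisphosphatase, averaged 0.615, 0.510 and 3.01 CP10K in set 0 over the Fabp1 groups, and 0.516, 0.468 and 0.920 CP10K in set 1. The sets were closer in the low and middle groups than in the high one. In these rows, with Fabp6 below 10 and no Mki67 or Top2a, the log2 ratio of Fabp1 above 100 over below 40 was 2.27 in set 0 and 0.82 in set 1. Within the same rows, 4 of 8 members were at least 2-fold higher in set 0 (6.09% of all genes) and 3 of 8 in set 1 (3.92% of all genes), and the member missing in set 1 was Fbp1.

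Gpd1 (ENSMUSG00000023019.12, chr15:99717515-99725005, plus strand) makes glycerol phosphate from a glycolytic intermediate, for triglyceride synthesis or electron shuttling. It averaged 0.810, 1.56 and 1.28 CP10K in set 0 over the Fabp1 groups, and 0.405, 0.877 and 0.708 CP10K in set 1. The middle group held the highest mean in both sets, and set 0 lay above set 1 in all 3 groups.

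Rows with Mki67+Top2a above 0 held less of most members. The 12 proliferation markers differed among such rows with Fabp6 below 10. In set 0 they summed to 25.02 CP10K with Fabp1 below 40 and 5.18 CP10K with Fabp1 above 100. In set 1 they summed to 26.98 and 5.77 CP10K. In rows at 0 with Fabp1 below 40 and Fabp6 below 10, they summed to 3.94 CP10K in set 0 and 3.75 CP10K in set 1. Of the 7 members past 0.2 CP10K, Fbp1, Slc2a2, Pck1 and Slc5a1 were at least 2-fold lower in the 2064 rows with Mki67+Top2a above 0 than in the 8989 rows without, where 5.25% of all 5691 genes were lower and 9.58% higher by that fold. Fbp1 averaged 0.488 CP10K in rows with Mki67+Top2a above 0 and 1.76 CP10K in rows at 0 (log2 ratio -1.83), and Slc5a1 0.888 and 1.85 CP10K (-1.05). Of the 2064 rows, 678 of set 0 and 668 of set 1 had Fabp1 below 40 and Fabp6 below 10, so the comparison was repeated within such rows. There Fbp1 averaged 0.121 CP10K in rows with Mki67+Top2a above 0 and 0.615 CP10K in rows at 0 of set 0, and 0.113 and 0.516 CP10K in set 1. Markers of other cells moved with these groups: the 8 enteroendocrine markers summed to 0.108 CP10K with Mki67+Top2a above 0 and 8.82 CP10K at 0 in set 0, and 0.260 and 6.43 CP10K in set 1. The 7 goblet markers summed to 8.52 and 15.7 CP10K in set 0 and 7.45 and 6.27 CP10K in set 1, and the 8 enterocyte markers to 51.7 and 132 CP10K in set 0 and 77.7 and 191 CP10K in set 1. Their part in the result was not tested. Of the 6 members past the minimum, Slc5a1, Fbp1 and Pck1 were at least 2-fold lower in set 0 (3 of 6, 6.2% of all genes), and the same 3 were in set 1 (5.45% of all genes).

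Khk hardly differed in those rows. It averaged 0.370 CP10K with Mki67+Top2a above 0 and 0.381 CP10K at 0 in set 0, and 0.439 and 0.414 CP10K in set 1, and in each set the Poisson intervals of the 2 groups overlap. So do those of Slc2a5, which has few UMIs there. Gpd1 was lower by less than 2-fold in set 0, and its intervals overlap in set 1, at 0.555 CP10K with Mki67+Top2a above 0 and 0.810 CP10K at 0 in set 0, and 0.326 and 0.405 CP10K in set 1. In every set, the rows with Mki67+Top2a above 0, Fabp1 below 40 and Fabp6 below 10 were the lowest of all groups for Slc5a1, Slc2a2, Fbp1, G6pc, Pck1 and Slc37a4. The spread between the lowest and the highest group was widest for Fbp1 in set 0, at 32.2-fold, and for Slc2a2 in set 1, also at 32.2-fold.

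Rows with Fabp6 above 50 differed in another way. Over all rows, 1 of the 8 members past the minimum, Fbp1, was at least 2-fold higher with Fabp6 above 50 (1135 rows) than with Fabp6 below 10 (8971 rows), at 3.11 and 1.26 CP10K, and none was 2-fold lower. Of all 5483 genes, 4.05% were higher and 5.87% lower by that fold. This comparison mixes the sets, since 1108 of the 1135 rows belong to set 0 and 27 to set 1, and in set 0 alone no member reached 2-fold. The split depends in part on the 818 shared barcodes, whose rows were left out of set 1 only. Fabp6 was above 50 in 23.1% of their set 0 rows and 21.9% of their set 1 rows.

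Within set 0, rows with Fabp1 above 100 and no Mki67 or Top2a allow a closer comparison of 423 rows with Fabp6 above 50 against 2362 with Fabp6 below 10. The groups still differ in Fabp1, which averaged 188 CP10K with Fabp6 above 50 and 316 CP10K below 10. Onecut2, of the proximal list, averaged 0.0910 and 0.833 CP10K, while Slc40a1 of that list went the other way, at 2.82 and 2.27 CP10K. Of the other distal markers, Fgf15 averaged 2.14 and 0.213 CP10K, Slc51a 8.58 and 5.54 CP10K, and Slc51b 4.13 and 2.71 CP10K. Slc10a2 was near 0 in both and lower with Fabp6 above 50, at 0.00247 and 0.00405 CP10K. Their part in the result was not tested. Gpd1 averaged 0.631 CP10K with Fabp6 above 50 and 1.28 CP10K with Fabp6 below 10 (log2 ratio -1.01), the only 1 of 8 members at least 2-fold lower, where 1.69% of all 5079 genes were. Khk, at 0.312 and 0.623 CP10K (-0.97), stood just short of that fold. Slc2a2 was at 0.801 CP10K with Fabp6 above 50 and 1.15 CP10K below 10, and Slc5a1 at 2.17 and 2.13 CP10K. Fbp1 was at 3.81 CP10K with Fabp6 above 50 and 3.01 CP10K below 10.

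Where Fabp1 was below 40, the rows of set 0 with Fabp6 above 50 stood higher in several members. Of the other distal markers, Fgf15 averaged 3.31 CP10K in these rows and 1.29 CP10K with Fabp6 below 10, Slc51a 8.67 and 4.45 CP10K, and Slc51b 3.86 and 1.45 CP10K. Slc10a2 went the other way, at 0.0326 and 0.0556 CP10K. Fbp1 averaged 2.48 CP10K in the 446 rows with Fabp6 above 50 and 0.615 CP10K in the 641 rows below 10, and Slc2a2 0.347 and 0.0891 CP10K. These were 2 of the 7 members past the minimum, and 5.16% of all 5674 genes were as much higher. Pck1, at 0.929 CP10K with Fabp6 above 50 and 0.474 CP10K below 10 (log2 ratio 0.96), was just under the fold, and Khk was lower, at 0.222 and 0.381 CP10K. Cell type markers moved with these groups. The 8 enterocyte markers summed to 324 CP10K with Fabp6 above 50 and 132 CP10K below 10, with the apolipoprotein Apoa1 at 151 and 63.2 CP10K. The 7 goblet markers went the other way, summing to 2.95 CP10K with Fabp6 above 50 and 15.7 CP10K below 10. So did the 8 enteroendocrine markers, at 0.284 and 8.82 CP10K. The part of these markers in the result was not tested.

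**Figure D2:**
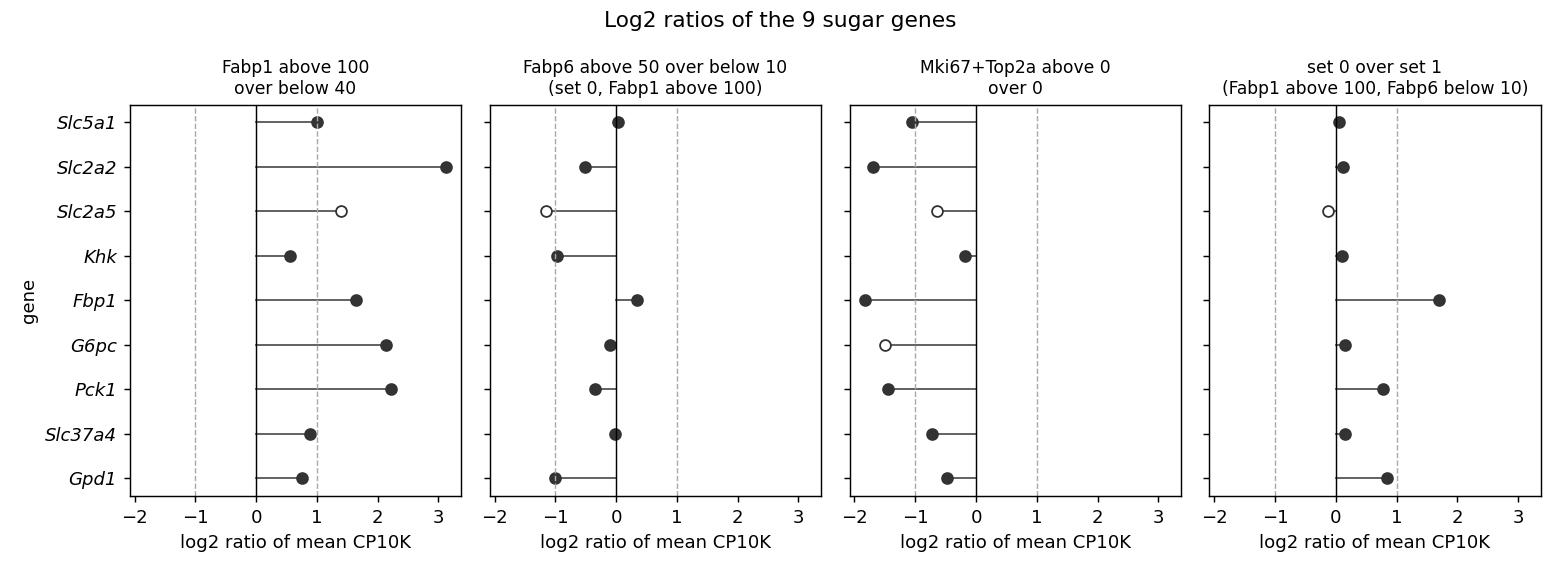
Log2 ratios of mean CP10K (x axis; dashed lines mark 2-fold) of the 9 genes (rows) in 4 comparisons, each written above its panel; filled points are past 0.2 CP10K in either group, open ones are not. Slc2a2 reaches 3.12 in the Fabp1 panel, Gpd1 -1.01 in the Fabp6 panel, Fbp1 -1.83 in the Mki67+Top2a panel and 1.70 in the panel of the sets.

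The sets were compared in the group that holds most rows of each, with Fabp1 above 100, Fabp6 below 10 and no Mki67 or Top2a (2362 rows of set 0 and 2412 of set 1). Only Fbp1 of the 8 members past the minimum differed by at least 2-fold, where 2.04% of all 5001 genes did. It averaged 3.01 CP10K in set 0 and 0.920 CP10K in set 1, a log2 ratio of 1.70 that stood in place 21 of the 5001 genes from the top. Counting intervals were 2.93 to 3.01 UMIs per 10000 in set 0 and 0.917 to 0.966 in set 1. Regional markers moved with the sets in these rows: Fabp6 averaged 1.07 CP10K in set 0 and 0.580 CP10K in set 1, Fgf15, another ileal gene, 0.213 and 0.0726 CP10K, and Onecut2, of the proximal list, 0.833 and 1.13 CP10K. The 5 distal markers summed to 9.53 CP10K in set 0 and 7.82 CP10K in set 1, and the 5 proximal ones, most of it the grouping gene Fabp1, to 321 and 236 CP10K. The proximal markers other than Fabp1 were all lower in set 0. Beside Onecut2, Gata4 averaged 0.249 CP10K in set 0 and 0.300 CP10K in set 1, Slc40a1 2.27 and 2.30 CP10K, and Reg1 1.91 and 2.04 CP10K. Their part in the result was not tested. Rows of a set varied widely: the quartiles of Fbp1 were 0.570, 1.99 and 4.84 CP10K in set 0, and 0, 0.367 and 1.09 CP10K in set 1.

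Gpd1 and Pck1 came next. Gpd1 averaged 1.28 CP10K in set 0 and 0.708 CP10K in set 1 (log2 ratio 0.85, place 85), and Pck1 2.55 and 1.48 CP10K (0.78, place 104). Their intervals were apart, at 1.25 to 1.30 UMIs per 10000 in set 0 and 0.659 to 0.701 in set 1 for Gpd1, and 2.47 to 2.55 in set 0 and 1.43 to 1.49 in set 1 for Pck1. The other 6 members lay within 0.15 of 0 on the log2 scale, among them Slc5a1 at 2.13 CP10K in set 0 and 2.04 CP10K in set 1. Khk averaged 0.623 CP10K in set 0 and 0.584 CP10K in set 1. Over all rows of the sets the same 1 member, Fbp1, passed 2-fold, at 2.27 CP10K in set 0 and 0.670 CP10K in set 1, where 1.95% of all 5289 genes did.

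With Fabp1 below 40 (641 rows of set 0 and 1061 of set 1), none of the 6 members past the minimum differed by 2-fold, where 1.79% of all 5464 genes did. Fbp1 was at 0.615 CP10K in set 0 and 0.516 CP10K in set 1, and Pck1 at 0.474 and 0.408 CP10K. Gpd1 kept its distance, at 0.810 CP10K in set 0 and 0.405 CP10K in set 1 (log2 ratio 0.98). Cell type markers differed between the sets in these rows. The 8 enterocyte markers summed to 132 CP10K in set 0 and 191 CP10K in set 1, and the 7 goblet markers to 15.7 and 6.27 CP10K. Their part in the result was not tested. In the middle group of 40 to 100 CP10K (173 rows of set 0 and 439 of set 1), Slc2a2 was the 1 of 7 members past the minimum that differed by 2-fold, where 1.78% of all 5224 genes did. It was lower in set 0, at 0.148 CP10K against 0.321 CP10K in set 1 (log2 ratio -1.07, from 72 and 338 UMIs), while over all rows it stood at 0.680 CP10K in set 0 and 0.628 CP10K in set 1. In the middle group the 8 enterocyte markers summed to 267 CP10K in set 0 and 373 CP10K in set 1, and their part in the result was not tested.

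Fabp1 itself was higher in set 0 within the group above 100, at 316 CP10K against 230 CP10K in set 1, so narrower steps were added after the data had been seen. Between 100 and 200 CP10K of Fabp1, Fbp1 averaged 1.42 CP10K in the 292 rows of set 0 and 0.622 CP10K in the 858 of set 1. Between 200 and 300 it averaged 2.92 CP10K in the 660 rows of set 0 and 1.04 CP10K in the 1140 of set 1, and above 300 it averaged 3.39 CP10K in the 1410 rows of set 0 and 1.22 CP10K in the 414 of set 1. The Fbp1 means of the sets differed by over 2-fold in each of these steps. The part of Fabp1 and of the regional markers in that difference was not tested. Slc2a2 was lower in set 0 between 100 and 200 too, with 0.604 CP10K in set 0 and 0.848 CP10K in set 1. Which genotype a set holds is not known. With 1 library each, a difference between genotypes cannot be told apart from a difference between libraries or pools of embryos.

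**Figure D3:**
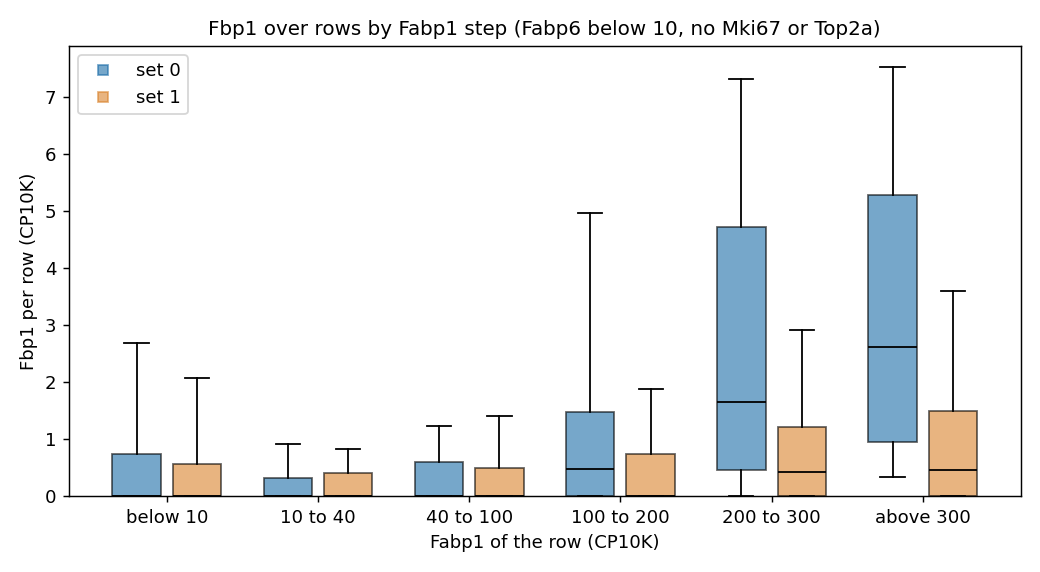
Fbp1 per row in CP10K (y axis, from 0) in 6 steps of Fabp1 in CP10K (x axis), for rows with Fabp6 below 10 and no Mki67 or Top2a; boxes span the quartiles, the line is the median, whiskers reach the 10th and 90th percentiles, blue is set 0 and orange set 1. The medians are 1.65 CP10K in set 0 and 0.433 CP10K in set 1 between 200 and 300, and 2.61 and 0.457 CP10K above 300.

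Shares of rows with a transcript were compared with every row thinned to 8000 UMIs (34 rows of set 0 and 44 of set 1 were too shallow and left out). In the group with Fabp1 above 100, Fabp6 below 10 and no Mki67 or Top2a, 68.5% of set 0 rows (exact Clopper-Pearson 95% interval 66.6% to 70.4%) and 34.8% of set 1 rows (32.9% to 36.8%) held Fbp1. Without thinning the shares were 86.0% and 57.0%, at median depths of 25003.5 and 23633 UMIs. Pck1 was held by 75.3% of set 0 rows and 57.7% of set 1 rows, and Gpd1 by 59.5% and 36.8%. Khk was held by 34.3% of set 0 rows and 36.0% of set 1 rows, with intervals that overlap.

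No group of rows known to lack these transcripts was at hand. For comparison, 127 rows rich in goblet cell markers (7 markers summing to at least 50 CP10K, a bound set after the data had been seen, median depth 12768 UMIs) were thinned in the same way. Of the 100 deep enough, 28.0% held Fbp1 (interval 19.5% to 37.9%), 24.0% Pck1, 19.0% Gpd1, 44.0% Slc5a1 and 13.0% Slc2a2. The goblet rows are no floor, since the rows with Mki67+Top2a above 0, Fabp1 below 40 and Fabp6 below 10 held less. There Fbp1 was in 9.08% of set 0 rows and 6.97% of set 1 rows and Slc5a1 in 24.9% and 28.8%. In set 1 rows with Fabp1 above 100, Fabp6 below 10 and no Mki67 or Top2a, the share of Fbp1 lies inside the interval of the goblet rows. By step of Fabp1 it was 26.3% at 100 to 200, 38.7% at 200 to 300 and 41.6% above 300. The shares of Slc5a1 with Fabp1 below 40, Fabp6 below 10 and no Mki67 or Top2a, 52.8% in set 0 and 54.2% in set 1, also lie inside its goblet interval (34.1% to 54.3%). Those of Slc2a5 with Fabp1 above 100, Fabp6 below 10 and no Mki67 or Top2a, 3.82% in set 0 and 5.24% in set 1, lie inside its own (0.243% to 7.04%). The goblet rows were not removed from the groups, so a group can hold some of the rows it is compared with. No expression beyond free RNA is read from these shares alone.

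**Figure D4:**
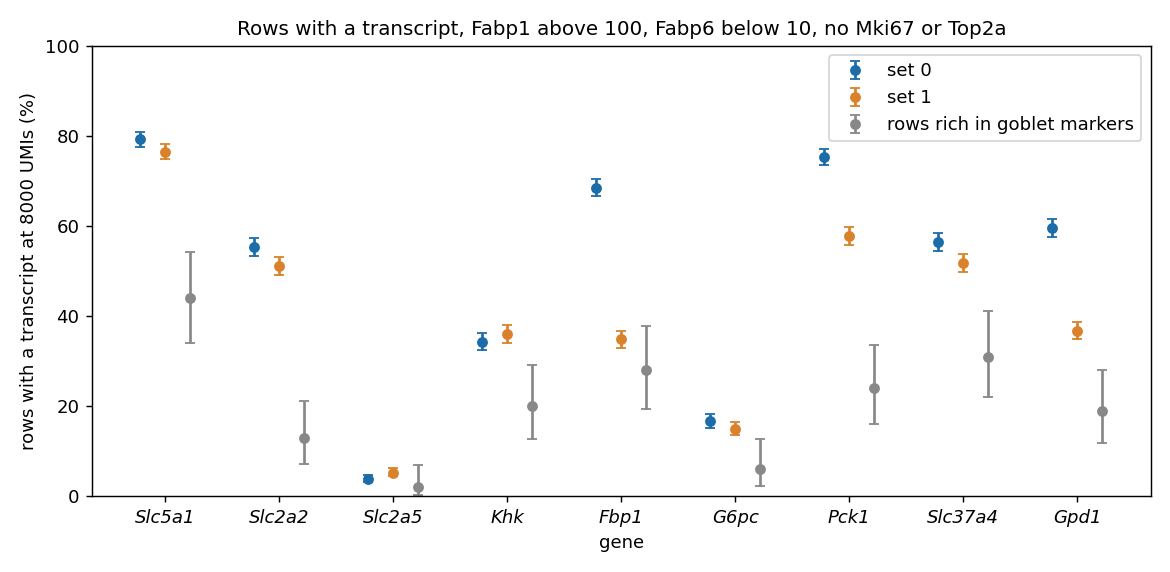
Rows with at least 1 transcript of each gene after thinning to 8000 UMIs, in percent (y axis), for set 0 (blue) and set 1 (orange) with Fabp1 above 100, Fabp6 below 10 and no Mki67 or Top2a, and for rows rich in goblet markers (grey); bars are exact 95% intervals. Fbp1 is the gene with the widest gap between the sets, at 68.5% and 34.8%.

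Other sugar genes were taken from 9 lists, of which 140 genes beside the members are in the table. With Fabp1 above 100 against below 40, 8 of the 82 past the minimum were at least 2-fold higher and 2 lower (4.91% and 11.6% of all genes), and their median log2 ratio was 0.10, beside -0.17 over all genes. The higher ones were Slc37a2, a paralog of Slc37a4 (0.402 and 0.0361 CP10K, log2 ratio 3.16), Lct, the brush border lactase (4.09 and 0.587 CP10K, 2.78), the alanine transaminase Gpt (2.61), Pfkfb4, which makes and breaks the signal that sets glycolysis against gluconeogenesis (1.75), the hepatic and intestinal transcription factor Creb3l3 (1.73), the glycerol kinase Gk (1.48), pyruvate carboxylase Pcx (1.24) and the glycerate kinase Glyctk (1.23). The transketolase Tkt of the pentose phosphate path (1.94 CP10K with Fabp1 above 100 and 4.25 CP10K below 40) and the aldose reductase Akr1b3 were lower, at log2 ratios of -1.13 and -1.12. By list, 2 of 13 gluconeogenesis genes, 1 of 7 genes of fructose and polyol metabolism, 1 of 5 sugar transporters, 1 of 6 glycerol phosphate genes, 1 of 16 glycolysis genes, 1 of 3 disaccharidase genes and 1 of 15 regulators were higher, and no gene of glycogen and galactose (0 of 10) or of the pentose phosphate path (0 of 7) was.

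In rows with Mki67+Top2a above 0 against 0, 8 of the 84 other sugar genes past the minimum were at least 2-fold lower (5.25% of all genes), led by Lct (1.07 and 3.02 CP10K), and 1 was higher (9.58% of all genes): Pck2, the mitochondrial counterpart of Pck1, at 0.217 CP10K with Mki67+Top2a above 0 and 0.0886 CP10K at 0 (log2 ratio 1.20). Pck1 stood at 0.550 and 1.52 CP10K in the same rows. Within rows with Fabp1 below 40 and Fabp6 below 10 Pck2 was under 2-fold, at 0.261 CP10K with Mki67+Top2a above 0 and 0.175 CP10K at 0 in set 0 and 0.280 and 0.167 CP10K in set 1. With Fabp6 above 50 against below 10, 3 of 83 were higher (4.05% of all genes), the regulator Pfkfb3 (log2 ratio 1.42), the sorbitol dehydrogenase Sord (1.21) and the glycogen branching enzyme Gbe1 (1.05), and 4 lower (5.87% of all genes): the sugar transporter Slc50a1 (-1.34), Rpia of the pentose phosphate path (-1.14), Slc37a2 (-1.05) and Gpt (-1.04). As nearly all rows used with Fabp6 above 50 belong to set 0, the closer comparisons within set 0 were read too. There Pfkfb3 fell short of 2-fold (log2 ratio 0.82 with Fabp1 above 100 and 0.85 with Fabp1 below 40), and over all rows it was 2-fold higher in set 0 than in set 1 (1.25). Sord kept its fold in both (1.18 and 1.02), while Gbe1 (0.77 and 1.26) and Rpia (-0.52 and -1.01) did so only with Fabp1 below 40. Slc50a1 was also counted as lower only with Fabp1 below 40, and was not past the minimum with Fabp1 above 100. Slc37a2 and Gpt were counted as lower only with Fabp1 above 100, and Slc37a2 was not past the minimum with Fabp1 below 40. Between the sets in the group with Fabp1 above 100, Fabp6 below 10 and no Mki67 or Top2a, none of 85 was higher in set 0 by 2-fold and 2 were lower, the lactate dehydrogenase subunit Ldhb (0.114 CP10K in set 0 and 0.265 CP10K in set 1) and Pcx (0.209 and 0.429 CP10K), while Fbp1 and Pck1, which act further along the path that Pcx opens, were higher in set 0.

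Over the 18 groups with at least 50 rows (11 of set 0 and 7 of set 1), the members differed in how far they varied together. Pearson correlations of log2 means, given as a description of groups that share libraries, were 0.96 between Pck1 and Slc37a4, 0.94 between G6pc and Pck1 and 0.94 between G6pc and Slc2a2. Khk lay at 0.09 with Pck1, 0.02 with Slc2a2 and -0.37 with Fbp1, and highest with Slc2a5 (0.57) and Gpd1 (0.51). The genes most like each member among 6594 others were Grhpr for Slc5a1 (0.995), Pfkfb4 for Slc2a2 (0.983), Cda for Khk (0.943), the trypsin inhibitor Spink1 for Fbp1 (0.985), the liver and gut peptide Leap2 for G6pc (0.974), the lipid droplet protein Cidec for Pck1 (0.983), the copper transporter Slc31a1 for Slc37a4 (0.971) and the respiratory complex subunit Ndufs5 for Gpd1 (0.900). For Slc2a5, whose groups hold few UMIs, Mfsd2a came first (0.931, among 6595). Reg1, a gene of the proximal list, was the third for Khk (0.941), beside Mdh2, the mitochondrial malate dehydrogenase.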

How the data were processed

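Per the submitters' processing notes, Salmon 0.14.1 with alevin and Scanpy 1.6.0 were used, with the builds GRCm38 and mm10; the sources used here do not give filters or annotation. The authors deposited 1 table of 11871 cell barcodes by 25663 genes as a linear signal: each row sums to 10000, and it is neither counts nor log values. Row totals were recovered from the most frequent smallest step of each row, which put a median of 94.9% of values (lowest row 84.3%) within 0.01 of a whole number of UMIs; alevin can split a UMI between genes. Totals ran from 1152.5 to 250630 UMIs, and 97.3% of rows were above 10000, although the labels state 10000 reads per cell. Rows had at least 1193 genes and at most 15.0% mitochondrial signal. No row was left out for quality and no doublets were called, since no cells were named or clustered.

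Group levels are means over rows (Python 3.11.15, numpy 2.4.6, pandas 2.3.3, scipy 1.17.1). Genes under 0.2 CP10K in both groups were not counted, 0.01 CP10K was added before log2 ratios, and groups under 50 rows were not used. Thinning drew 8000 UMIs per row without replacement (seed 0). The arithmetic was tested on simulated data. The members, lists and groups were chosen with earlier results of these data known. Other genes are named as the highest and lowest of each list, and as the 3 most alike of each member, of which the first is mostly printed. Gene positions are from GENCODE vM21 (GRCm38). Alternatives were sums of UMIs, both treatments of the shared barcodes, row filters, other denominators, bounds, minimums and added values, a stricter rule for Mki67+Top2a, deep rows left out, and 1 set at a time.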

Additional observations from a re-analysis of the deposited data

How the results depend on the processing

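No paired analysis was possible because each genotype has 1 library, both numbered 1, and no test was made. Of the counts, 99 stayed within 1.5 times the value reported and 21 did not. Among the ratios of single members, 516 kept their side of 2-fold, 13 crossed to at least 2-fold, 10 fell under it and 1 was reversed: Slc2a2 in set 0 over set 1, at a log2 ratio of 0.11 over all rows and -1.07 with Fabp1 40 to 100, Fabp6 below 10 and no Mki67 or Top2a. Slc5a1 with Fabp1, at 0.99, passed 2-fold in 6 settings (1.01 to 1.20). Ratios under 2-fold changed sign in some setting for 7 member results, 5 of them between the sets. The causes were not tested, beyond what an alternative's own construction shows.

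Members: the count at least 2-fold higher with Fabp6 above 50 was 1, and 0 in set 0 alone. The count that differed between sets was 1 over all rows. It was 0 with Fabp1 below 40 and Fabp6 below 10, and 2 (Fbp1 and Gpd1) with Fabp1 above 100 and Fabp6 10 to 50, as with Fabp1 200 to 300.

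Other sugar genes: the Fabp1 count of 10 became 4 with a minimum of 1 CP10K, since fewer genes were tested, and 17 with none. The Fabp6 count of 7 became 1 with a minimum of 1 CP10K and 1 with 0.1 CP10K added. The Mki67+Top2a count of 9 became 18 with at least 2 UMIs, 3 with the minimum of 1 CP10K, 4 with 0.1 CP10K added and 14 in set 0 alone. The count between sets over all rows was 2. It was 0 with the row filter, the minimum of 1 CP10K or 0.1 CP10K added, 1 with shared barcodes kept or left out of both sets, 1 with Fabp1 below 40, 40 to 100 or 100 to 200 (Fabp6 below 10), and 4 with Fabp1 200 to 300.

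Not run for want of 50 rows were the Fabp6 comparison in set 1 alone (27 rows) and 5 matched groups of the sets. Depth limits Slc2a5 most, with 1229 UMIs in all.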
